A study of Mus musculus with 672 samples.

Results

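B cell-biased lymphoid progenitors (BLPs) lacking Mbd3 were compared with control BLPs from mouse bone marrow. The BLPs were the cells whose columns in the deposited table of read counts carry that population's name, 144 of the 672 cells of the series. Cells were kept with at least 50000 reads on nuclear genes, at least 1000 nuclear genes detected, at most 20% mitochondrial reads and at most 50% spike-in reads, which left 140 BLPs of 561 cells in all. The null group held 36 and 35 BLPs of mice 18217 and 18219, which carried the deleted allele on both chromosomes (Mbd3del/del). The control group held 34 and 35 BLPs of mice 18218 and 18220, which carried the floxed allele on both chromosomes (Mbd3flox/flox), so the controls are also engineered animals. All 4 mice were 7 weeks old, were on a mixed C57BL6/129Ola background and gave cells from femurs and tibiae. The same mice also gave lymphoid-primed multipotent progenitors (LMPPs) and all-lymphoid progenitors (ALPs). Neither the Cre line behind the deletion, nor the cells it acts in, nor the exons removed are named in the labels. Where a genotype has a pair of values, they are those of 18217 and 18219 for null mice, and of 18218 and 18220 for control mice. The mouse is the replicate (n = 2 each).

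Mbd3 is a subunit of NuRD, a complex that moves nucleosomes and removes acetyl groups from histones, and that contains either Mbd3 or the related protein Mbd2. Mbd2 binds methylated CpG dinucleotides, whereas mammalian Mbd3 does so poorly. BLPs are the stage at which lymphoid progenitors that carry the IL-7 receptor begin to express Ly6D and the B lineage transcription factors Ebf1 and Pax5, before the surface marker B220 appears.

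Libraries of BLPs held 54002037 and 53741264 reads on genes in null mice, against 81842869 and 108737030 in control mice. Null cells were read less deeply, with medians of 1230630 and 1076940 nuclear reads per cell against 2055700 and 2264780 in control mice. After each cell was thinned to 50000 nuclear reads, the median number of genes detected was 4506 and 4120 in null mice and 4545.5 and 3946 in control mice, and the genotypes overlapped. Mitochondrial reads took 7.24% and 7.43% in null cells and 6.35% and 6.19% in control cells, without overlap, and spike-ins took 9.92% and 13.7% against 8.11% and 14.9%. An exact permutation test over 2 mice against 2 cannot go below 0.33, two-sided, which the depth and mitochondrial differences reached. All 4 mice expressed Xist (2014 and 1501 CPM in null mice, against 1589 and 1445 CPM in control mice), and 4 Y-linked genes did not exceed 0.975 CPM in any of them.

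Mbd3 reads were nearly gone from null BLPs. Levels are given as CPM, the reads of a gene scaled to the size of its library and not corrected for transcript length. The gene (chromosome 10, 80392539 to 80399550, minus strand, build GRCm38) stood at 0.337 and 0.569 CPM in null mice, against 82.4 and 191 CPM in control mice. With every cell thinned to the same depth, Mbd3 was read in 0% and 2.86% of cells in null mice, against 55.9% and 62.9% in control mice, and without thinning in 38.9% and 48.6% of null against 85.3% and 100% of control cells. No null cell held 10 Mbd3 reads or more, against 18 of 34 and 23 of 35 control cells. The log2 fold change of the summed counts was −8.23 ± 2.11 (edgeR adjusted p = 0.431). The share of cells with a read passed a limma test (adjusted p = 0.0345), in which 2 of 11575 genes were called (0.0173%). Without limma's variance trend it did not pass (adjusted p = 0.0685), and with 1 mouse left out the share test called 0 genes in 3 of 4 cases. In the summed counts, fewer cells with a transcript and less transcript per cell cannot be told apart. Mbd3 stood at 2.88 and 0.352 CPM in null ALPs, against 99.1 and 102 CPM in control ALPs. In LMPPs it stood at 0.189 and 24.7 CPM in null mice, against 48.1 and 137 CPM in control mice. Reads were less fully lost in LMPPs of null mouse 18219, where 4.26% of cells had a read at equal depth. The effect in BLP differed from that in LMPP by −5.34 ± 2.33 on the log2 scale (edgeR adjusted p = 0.722).

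Across the genome, 2 of 19903 genes passed the test between null and control BLPs (0.01% of those tested). Apoe rose and Ablim1 fell, which is 0.00502% of genes in each direction. In all, 1757 genes (8.83%) had an unadjusted p under 0.05, 861 higher in null (4.33%) and 896 lower (4.5%). By the plain order of the 4 mice, 3240 genes (16.3%) lay higher in both null mice than in either control mouse, and 3409 (17.1%) lay lower. With 2 mice against 2, such an order in either direction has an exact two-sided permutation p of 0.33. The shares are near what unrelated labels would give, so the order alone does not show an effect of genotype. On the same counts DESeq2 called 800 genes and limma-voom 0, so the number called depends on the tool. Genes at an unadjusted p under 0.05 were spread over the chromosomes, from 6.38% of those tested on chromosome X to 10.0% on chromosomes 8 and 15, with 9.20% on chromosome 10, which carries Mbd3. Within 500 kb of Mbd3, 57 other genes were tested and none was called. Of these, 3 had an unadjusted edgeR p under 0.05, 3 lay higher in both null mice and 14 lay lower.

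**Figure D1:**
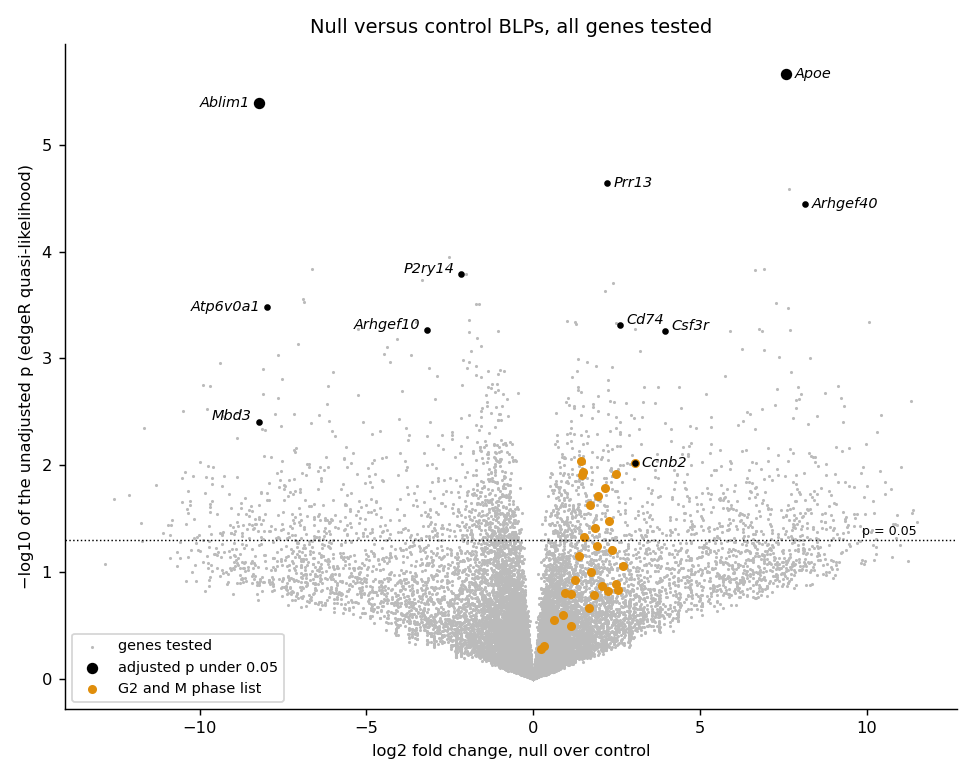
Each grey point is 1 of 19903 genes, with its log2 fold change of null over control BLPs on the x axis and −log10 of its unadjusted edgeR p on the y axis. Apoe and Ablim1 are the black points of full size, named genes that did not pass are small black points, and the 30 genes of the G2 and M phase list, in orange, all lie right of 0.

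Ablim1 encodes a LIM protein that binds actin filaments. It stood at 0.300 and 0.360 CPM in null mice, against 67.2 and 133 CPM in control mice (chromosome 19, 57032733 to 57314919, minus strand). It was read in 0% and 2.86% of cells in null mice, against 61.8% and 60.0% in control mice at equal depth, and without thinning in 33.3% and 31.4% of null against 88.2% and 91.4% of control cells. The highest null cell held 4 reads of it, while the highest control cell held 4076. The fold change was −8.24 ± 0.80 on the log2 scale (edgeR adjusted p = 0.0405), 301-fold lower in null, and the share of cells passed the limma test as well (adjusted p = 0.0234). The other populations of the same mice showed 0.514 and 0.815 CPM in null ALPs against 57.7 and 41.8 CPM in control ALPs, and 0.242 and 0.189 CPM in null LMPPs against 35.5 and 11.4 CPM in control LMPPs. In none of the 3 populations did the genotypes overlap, and neither test of a difference between populations was called (edgeR adjusted p = 0.776 for ALP, and 0.783 for LMPP with a log2 difference of −1.49 ± 0.87). Of 9 other genes tested within 500 kb of Ablim1, 0 had an unadjusted edgeR p under 0.05 (8.83% of all genes).

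Apoe encodes apolipoprotein E, which carries lipids between cells. It stood at 44.5 and 27.2 CPM in null mice, against 0.270 and 0.105 CPM in control mice (chromosome 7, 19696109 to 19699188, minus strand). Reads of Apoe were found in 16.7% and 20.0% of cells in null mice, against 0% and 0% in control mice at equal depth, and without thinning in 58.3% and 42.9% of null against 38.2% and 28.6% of control cells. Counted by cells with 10 reads or more, 5 of 36 and 4 of 35 null BLPs held it, against 0 of 34 and 0 of 35 control BLPs. The largest single cell gave 40.6% and 40.6% of the Apoe reads of the null mice, so the level rests on few cells. The fold change was 7.59 ± 0.68 on the log2 scale (edgeR adjusted p = 0.0405), 193-fold higher in null, and the share of cells did not pass (limma adjusted p = 0.0524). With the highest cell of each library left out for every gene, the change was 7.08 and no longer passed (edgeR adjusted p = 0.179). Apoe stood at 36.0 and 49.6 CPM in null ALPs against 2.03 and 3.42 CPM in control ALPs, and at 127 and 219 CPM in null LMPPs against 21.0 and 15.1 CPM in control LMPPs, again without overlap. The effect in BLP did not differ from those in ALP or LMPP past the threshold (log2 difference 3.61 ± 0.76 and 4.33 ± 0.76, edgeR adjusted p = 0.776 and 0.706). Control BLPs had the lowest Apoe levels of the 3 control populations.

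Apoe is also a product of macrophages, so markers of that lineage are given beside it. The 20 macrophage and stroma genes summed to 485 and 354 CPM in null against 353 and 323 CPM in control mice, and of the 13 members tested 5 lay higher and 6 lower, with a median of 0. In both null mice 3 lay higher and 1 lower, where 16.3% and 17.1% of all genes did. Cd68, a lysosomal membrane protein, was the member with the smallest p, at 169 and 69.9 CPM in null mice, against 26.3 and 15.0 CPM in control mice (2.53 ± 0.71, edgeR adjusted p = 0.504). Cd163, a scavenger receptor of macrophages, also lay higher in both null mice, at 47.3 and 50.5 CPM in null mice, against 32.8 and 23.0 CPM in control mice (0.81 ± 0.55), while Mrc1, the mannose receptor, overlapped at 0.412 and 0.114 CPM in null against 10.0 and 0.0859 CPM in control mice. The defining macrophage genes C1qa and C1qb had no read in any BLP, and Adgre1 and C1qc did not exceed 0.0191 CPM in any mouse. The part of such cells in the Apoe reads was not tested. Of 39 other genes tested within 500 kb of Apoe, 5 had an unadjusted edgeR p under 0.05 (8.83% of all genes) and none was called. With any 1 of the 4 mice left out, edgeR called no gene in BLP, Apoe and Ablim1 included, and 1255 to 1842 genes had an unadjusted p under 0.05.

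The promoters of the 2 called genes are printed because CpG dinucleotides are what the Mbd family is known for. Each window runs from 250 bases before to 50 after the start listed by RefSeq (build GRCm38.p6), 5′ to 3′ on the gene's own strand, with CG in capitals, and is the most upstream of 3 listed starts for Apoe and of 5 for Ablim1.
Apoe, chr7:19699139-19699438, minus strand: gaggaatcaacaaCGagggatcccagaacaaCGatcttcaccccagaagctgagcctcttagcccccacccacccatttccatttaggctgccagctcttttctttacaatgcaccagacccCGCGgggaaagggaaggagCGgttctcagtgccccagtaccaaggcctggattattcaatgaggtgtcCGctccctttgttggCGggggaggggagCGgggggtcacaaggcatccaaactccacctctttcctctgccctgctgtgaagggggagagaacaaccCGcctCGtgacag
Ablim1, chr19:57314870-57315169, minus strand: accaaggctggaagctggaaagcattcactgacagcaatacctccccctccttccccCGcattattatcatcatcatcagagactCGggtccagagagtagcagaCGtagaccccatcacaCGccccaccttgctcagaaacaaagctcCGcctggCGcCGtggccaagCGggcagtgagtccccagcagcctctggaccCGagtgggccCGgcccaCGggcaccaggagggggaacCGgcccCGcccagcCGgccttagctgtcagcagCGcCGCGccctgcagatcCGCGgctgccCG
The Apoe window holds 10 CG and the Ablim1 window 20, against a median of 21 over the promoters of 11476 genes tested (for genes with several starts, the start with the most CG was taken). The other windows of Ablim1 hold 5 to 7 CG and those of Apoe 11 and 12. These are counts of letters, and methylation and binding were not measured here.

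No NuRD gene was called by level. Of 20 NuRD and Mbd family genes tested, 9 lay higher and 11 lower in null BLPs, with a median log2 fold change of −0.04 against −0.01 over all 19903 genes tested. Mbd2, the alternative subunit, stood at 80.1 and 75.6 CPM in null mice, against 45.1 and 78.0 CPM in control mice and overlapped. Chd4, the remodelling ATPase, stood at 166 and 309 CPM in null against 169.6 and 197 CPM in control mice, and Hdac1 and Hdac2, the deacetylases, differed by 0.08 ± 0.38 and −0.18 ± 0.34 on the log2 scale, with overlap for all 3. The member after Mbd3 with the smallest p was Rbbp7, a histone-binding subunit, at 277 and 288 CPM in null mice, against 217 and 227 CPM in control mice (0.35 ± 0.15, unadjusted p = 0.0446, edgeR adjusted p = 0.563).

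The sorting genes were present in every mouse. BLPs are gated as lineage-negative cells with Sca-1, c-Kit, high Flt3, the IL-7 receptor and Ly6D, and without B220. The transcript of Flt3, a cytokine receptor of lymphoid progenitors, stood at 584 and 651 CPM in null mice, against 885 and 817 CPM in control mice. Il7r, the receptor chain for IL-7, stood at 676 and 591 CPM in null mice, against 782 and 909 CPM in control mice, and Ly6d at 2627 and 1501 CPM in null mice, against 2793 and 3749 CPM in control mice. For Flt3 and Il7r both null mice lay below both control mice (log2 fold change −0.46 ± 0.11 and −0.42 ± 0.29, ± approximate SE), and so did Ly6d (−0.66 ± 0.58). Ly6a, which encodes Sca-1 and belongs to a family of similar genes, stood at 303 and 198 CPM in null mice, against 113 and 87.9 CPM in control mice, the opposite order (1.32 ± 0.61). Kit, the stem cell factor receptor, overlapped between genotypes (109 and 137 CPM in null against 115 and 89.7 CPM in control mice). None of these passed the edgeR quasi-likelihood test after Benjamini-Hochberg adjustment (adjusted p = 0.406 for Flt3, 0.696 for Il7r, 0.789 for Ly6d, 0.579 for Ly6a and 0.899 for Kit).

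Below the threshold, the genes with the smallest p that lay higher in null BLPs, limited to a mean level of 20 CPM or more and to genes read in 20% or more of each null mouse's cells, were of mixed function, and none was called. Prr13, a proline-rich protein, stood at 118 and 118 CPM in null mice, against 26.9 and 24.0 CPM in control mice, 4.64-fold higher (log2 2.21 ± 0.27, edgeR adjusted p = 0.128). Arhgef40, a guanine nucleotide exchange factor for small GTPases, stood at 21.2 and 26.3 CPM in null mice, against 0.0980 and 0.0668 CPM in control mice, with 10 of 36 and 8 of 35 null cells at 10 reads or more and no control cell. The transcript of Cd74, which chaperones MHC class II, stood at 34.5 and 55.2 CPM in null mice, against 5.42 and 9.39 CPM in control mice (2.60 ± 0.48). The genotypes did not overlap in any of the 3. Rcn3, a calcium-binding protein of the endoplasmic reticulum, had 71.9 and 69.8 CPM in null against 12.9 and 19.0 CPM in control mice. In null mouse 18219 a single cell gave 57.2% of the Arhgef40 reads, 59.2% of the Cd74 reads and 66.9% of the Rcn3 reads. Sord, which oxidises sorbitol, had 38.6 and 67.1 CPM in null against 8.80 and 10.1 CPM in control mice. At higher levels, Rad21, a cohesin subunit, stood at 251 and 202 CPM in null against 105 and 86.4 CPM in control mice (1.24 ± 0.23), Ccnt2, a cyclin of the P-TEFb elongation kinase, at 205 and 173 CPM in null against 82.1 and 72.1 CPM in control mice (1.29 ± 0.24), and Tcf25 at 294 and 342 CPM in null against 180.3 and 137 CPM in control mice (1.00 ± 0.18). Pde4d, a cyclic AMP phosphodiesterase, completed the group (1.34 ± 0.27). In each of these genes both null mice lay above both control mice. Their edgeR adjusted p-values ran from 0.128 for Prr13 to 0.370 for Pde4d.

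Behind Ablim1, 9 genes had the smallest p on the lower side by the same limits, read in the control mice. Atp6v0a1, a membrane subunit of the vacuolar proton pump, stood at 0.0750 and 0.133 CPM in null mice, against 29.5 and 23.2 CPM in control mice, and was read in 0% and 2.86% of cells in null mice, against 23.5% and 20.0% in control mice. P2ry14, a receptor for UDP-glucose found on hematopoietic progenitors, stood at 54.7 and 48.3 CPM in null mice, against 177 and 285 CPM in control mice (−2.17 ± 0.34). Slc25a1, the mitochondrial citrate carrier, was the most abundant of the group, at 491 and 424 CPM in null mice, against 1054 and 840.2 CPM in control mice (−1.05 ± 0.20). Both null mice lay below both control mice in all 3. Arhgef10, another exchange factor of that kind, had 11.0 and 4.07 CPM in null against 77.4 and 60.3 CPM in control mice, and Batf, an AP-1 family transcription factor of lymphocytes, had 10.5 and 11.2 CPM in null against 32.4 and 33.9 CPM in control mice. Map2k5, the kinase that activates ERK5, had 22.3 and 16.3 CPM in null against 54.5 and 71.8 CPM in control mice. Dtd1, which removes D-amino acids from tRNA, Nt5dc1 and Dennd1c lay lower as well (log2 fold changes of −2.01 ± 0.32, −1.94 ± 0.35 and −1.92 ± 0.36). All 9 had the same edgeR adjusted p of 0.287 and were not called.

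**Figure D2:**
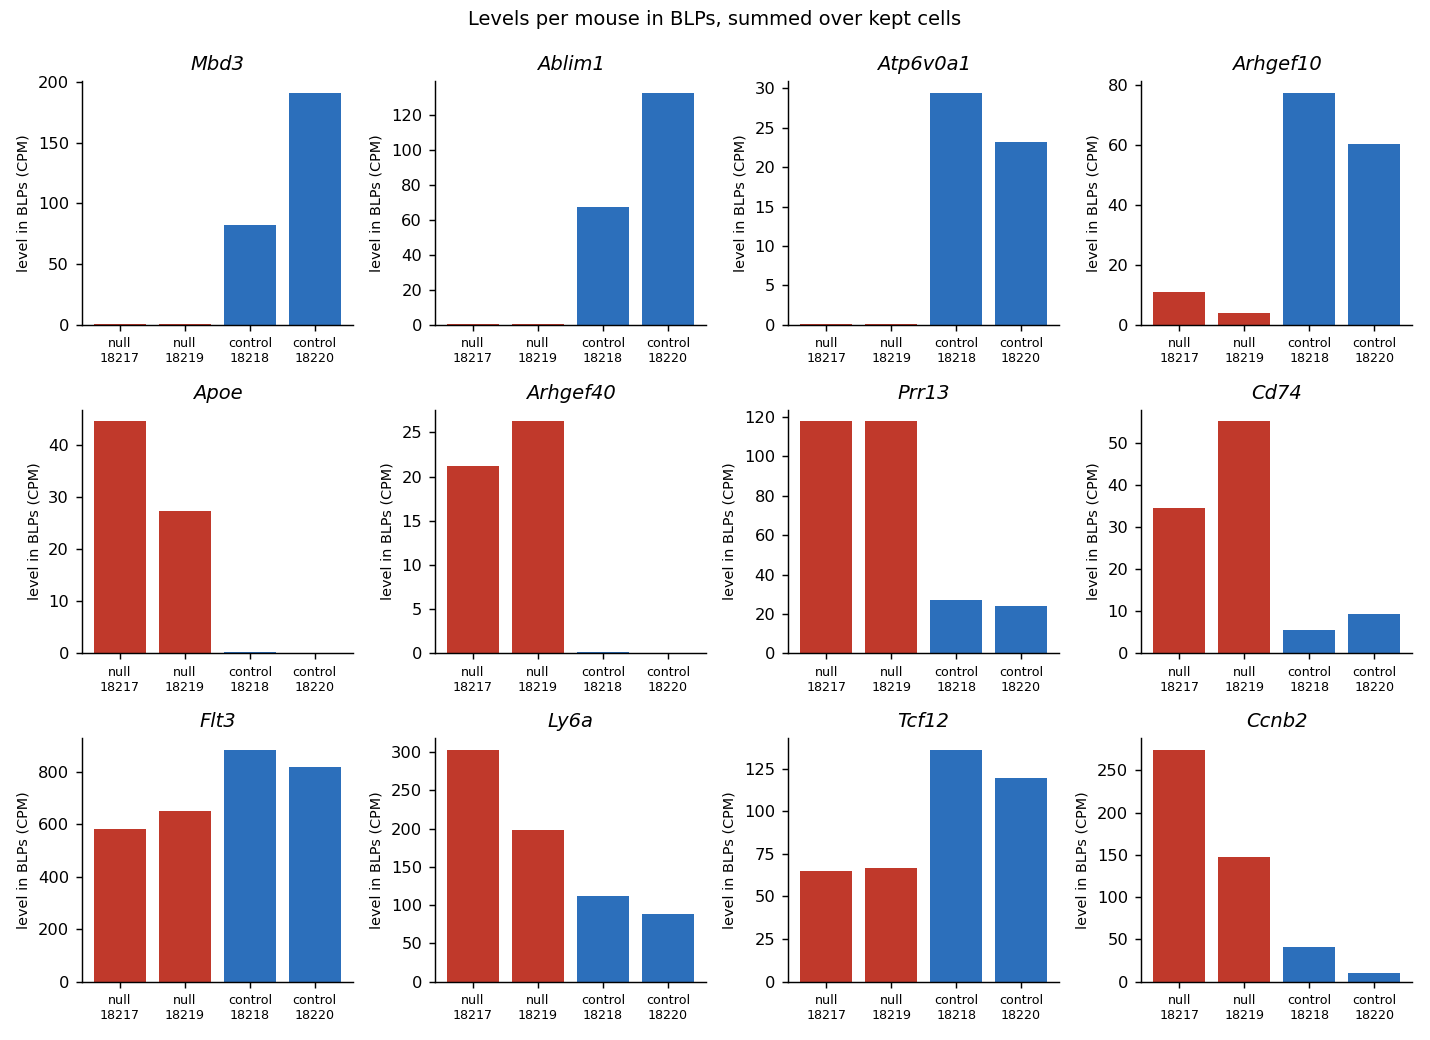
Bars give the level in CPM, reads of a gene scaled to the library's size, for each mouse, summed over its kept BLPs, with the 2 null mice in red at the left and the 2 control mice in blue at the right of each panel; each axis starts at 0 and has its own scale. In each of the 12 panels both null bars lie above, or both lie below, the control bars.

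Shares of cells with a read at equal depth gave a measure in which each cell counts alike. Of 11575 genes read in at least 10% of the cells of some BLP library, the 2 called were Ablim1 and Mbd3, and both fell. By order of the mice alone, 1591 genes (13.7%) were read in more cells of both null mice and 1845 (15.9%) in fewer. Among those that also did not overlap in level, Prr13 had the largest gain, read in 63.9% and 57.1% of cells in null mice, against 23.5% and 31.4% in control mice. Marcks, a membrane-bound substrate of protein kinase C, was read in 91.7% and 94.3% of cells in null mice, against 55.9% and 68.6% in control mice. Nemp1, a protein of the inner nuclear membrane, was read in 38.9% and 45.7% of cells in null mice, against 8.82% and 14.3% in control mice, and Tyrobp, a signalling adaptor of innate receptors, in 77.8% and 85.7% of cells in null mice, against 58.8% and 48.6% in control mice. Cd244a, Itsn1, Hadha and Chchd3 gained 28.0 to 28.5 percentage points.

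The largest losses in share after Ablim1 and Mbd3 included genes of signalling. Ikbkg, the regulatory subunit of the IκB kinase complex, was read in 8.33% and 17.1% of cells in null mice, against 38.2% and 45.7% in control mice. Dok2, an adaptor that restrains tyrosine kinase signalling, was read in 30.6% and 51.4% of cells in null mice, against 73.5% and 65.7% in control mice, and Ncf4, a subunit of the phagocyte oxidase, in 36.1% and 54.3% of cells in null mice, against 76.5% and 80.0% in control mice. The mean shares of Arhgef10, Ankrd28 and Dcaf17 were lower in null cells and differed by −29.3, −34.5 and −30.1 percentage points. None of these 6 passed the limma test of shares, where adjusted p ran from 0.187 for Arhgef10 to 0.648 for Dok2.

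**Figure D3:**
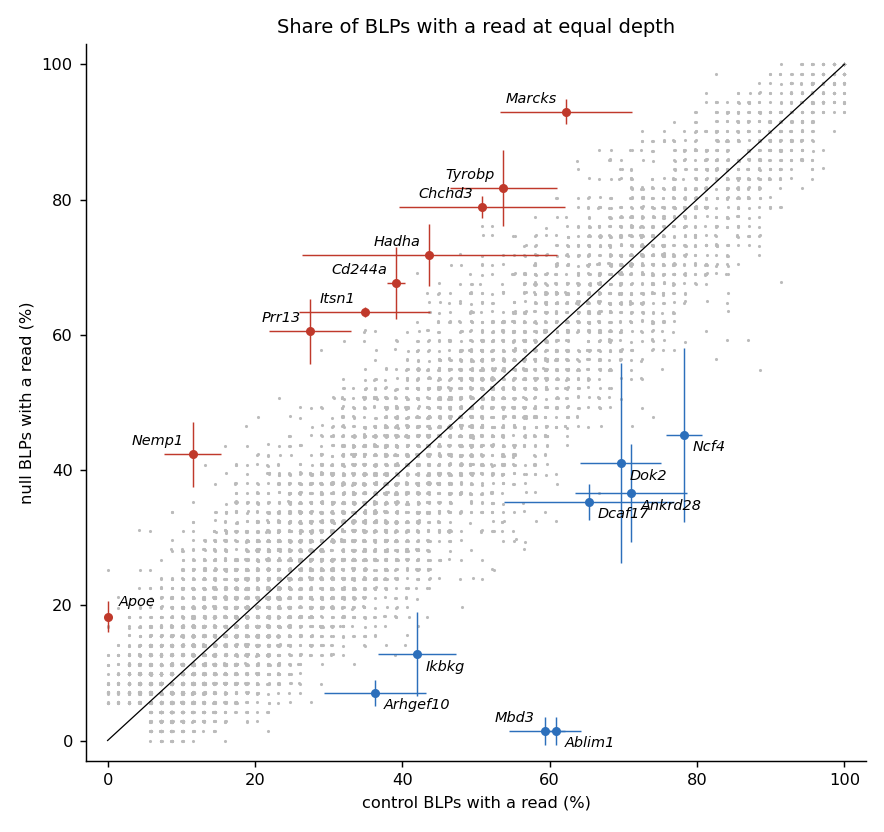
Each grey point is 1 of 11575 genes, with the mean share of control BLPs with a read on the x axis and of null BLPs on the y axis, after thinning each cell to 50000 nuclear reads; the line marks equal shares. Coloured points are genes named in the text, red for more null cells and blue for fewer, with bars of 1 SD over 2 mice, and Ablim1 and Mbd3 sit near 0 on the y axis at about 60% on the x axis.

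Transcripts of the B lineage programme were present in both genotypes and none was called. Of 20 B lineage transcription factors, 11 lay higher and 9 lower in null BLPs, with a median log2 fold change of 0.04, and 7 lay higher and 4 lower in both null mice (16.3% and 17.1% of all genes). Ebf1, which starts the B lineage programme, stood at 278 and 291 CPM in null mice, against 267 and 227 CPM in control mice (0.20 ± 0.24), while it was read in 66.7% and 65.7% of cells in null mice, against 76.5% and 68.6% in control mice. Its level was higher and its share lower in both null mice, with edgeR adjusted p = 0.869 for the level. Pax5, which commits cells to that lineage, had 141 and 72.1 CPM in null against 43.1 and 36.4 CPM in control mice, without overlap (1.42 ± 0.69, edgeR adjusted p = 0.591). It was read in 30.6% and 28.6% of cells in null mice, against 29.4% and 25.7% in control mice, with overlap, and 1 cell gave 63.4% of the reads of null mouse 18217. Tcf12, an E protein that pairs with E2A, had the smallest p of the list, at 64.9 and 67.0 CPM in null mice, against 136 and 119 CPM in control mice (−0.95 ± 0.26, edgeR adjusted p = 0.496). Myb, a factor of progenitor growth, had 429 and 378 CPM in null against 509 and 574 CPM in control mice. The median cell held a read for 12 and 11 of the 20 factors in null mice and for 12 and 11 in control mice. The list's median was of the opposite sign under 6 of 15 alternatives.

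Genes of antigen receptor assembly gave a like picture. Of 24 genes of recombination, the surrogate light chain and the B cell receptor, 14 lay higher and 10 lower, with a median of 0.06 and none called. Dntt, the polymerase that adds bases at recombination joints, was among the most abundant transcripts, at 5342 and 7535 CPM in null mice, against 5319 and 4789 CPM in control mice, and was read in every cell at equal depth. Rag1, which with Rag2 cuts antigen receptor genes, stood at 191 and 348 CPM in null against 282 and 284 CPM in control mice. Rag2 stood at 207 and 254 CPM in null against 229.9 and 129 CPM in control mice, and both overlapped. Cd79a, a B cell receptor signalling chain, stood at 524 and 499.9 CPM in null against 363 and 419 CPM in control mice, and Igll1, of the surrogate light chain, at 646 and 194 CPM in null against 13.4 and 269 CPM in control mice, with wide differences within each genotype. Lyn, a kinase downstream of the receptor, stood at 47.1 and 46.6 CPM in null against 79.1 and 96.6 CPM in control mice (−0.91 ± 0.47).

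Genes of IL-7 and cytokine signalling lay lower more often than higher, and no member was called. Of 22 members, 16 lay lower and 6 higher in null BLPs, with a median of −0.32, and 8 lay lower in both null mice against 2 higher (17.1% and 16.3% of all genes). The list's median stayed negative under all 15 alternatives. Besides Il7r and Flt3, the signal transducer Stat5a had 26.4 and 34.6 CPM in null against 49.0 and 57.5 CPM in control mice (−0.80 ± 0.33), Crlf2, the receptor chain for TSLP, had 27.5 and 20.7 CPM in null against 50.0 and 37.3 CPM in control mice, and the survival gene Bcl2 had 130.4 and 142 CPM in null against 185 and 264 CPM in control mice. In all 3 the null mice lay below the control mice in level. At equal depth Stat5a was read in 13 of 36 and 9 of 35 null cells, against 14 of 34 and 8 of 35 control cells, with overlap. In control mouse 18220, 1 cell gave 4033 of the 6018 Stat5a reads. Socs3, a feedback inhibitor, went the other way at 41.6 and 73.7 CPM in null against 5.62 and 28.4 CPM in control mice, as did Csf3r, the G-CSF receptor, at 1.87 and 11.0 CPM in null against 0.368 and 0.468 CPM in control mice, which was read in 2.78% and 8.57% of cells in null mice, against 2.94% and 8.57% in control mice.

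Genes of the G2 and M phases of the cell cycle all lay higher in null BLPs. Of 30 members, all 30 had a positive fold change, 26 lay higher in both null mice, where 16.3% of all genes did, and none lower, and the median log2 fold change was 1.72. None was called, and 11 had an unadjusted edgeR p under 0.05, where 4.33% of all genes were higher in null with such a p. Summed, the list stood at 4868 and 3066 CPM in null against 1728 and 1104 CPM in control mice, so the null mice lay above both control mice. Ccnb2, a mitotic cyclin, stood at 275 and 147 CPM in null mice, against 40.6 and 9.95 CPM in control mice (3.06 ± 0.92, edgeR adjusted p = 0.506). Kif23, a kinesin of cell division, stood at 157 and 87.9 CPM in null mice, against 57.6 and 33.7 CPM in control mice (1.43 ± 0.43), and Cks2, a subunit of the cyclin-dependent kinase complex, at 79.0 and 51.3 CPM in null mice, against 27.1 and 19.1 CPM in control mice (1.49 ± 0.47). Birc5, which acts in chromosome segregation, stood at 146 and 122 CPM in null against 56.0 and 25.5 CPM in control mice, and Top2a, the topoisomerase of dividing cells, at 682 and 445 CPM in null against 349 and 233 CPM in control mice.

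Read per cell, the mice differed within each genotype. At equal depth the median cell held a read for 8 and 3 of the 30 genes in null mice and 6 and 2 in control mice, and the genotypes overlapped (exact permutation p = 0.67). Cells with reads for at least 15 of the 30 were 11 of 36 (30.6%) and 9 of 35 (25.7%) in null mice, against 6 of 34 (17.6%) and 3 of 35 (8.57%) in control mice. By that count, chosen after the data were seen, both null mice lay above both control mice. With reads for at least 6 of the 30, the share used for every list, they were 66.7% and 42.9% of null cells and 61.8% and 20.0% of control cells, with overlap (exact permutation p = 0.67). A single cell gave 20.9% and 25.8% of the list's reads in null mice and 22.5% and 35.9% in control mice. The median fold change stayed positive under all 15 alternatives tried, between 0.69 and 2.21, with 27 to 30 members higher. Null cells were read less deeply, and with every cell thinned to equal depth the median was 1.51.

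S phase genes did not follow. Of 28, 17 lay higher and 11 lower, with a median of 0.09, and the sums overlapped at 6125 and 4884 CPM in null against 5532 and 5317 CPM in control mice. Mcm6, of the replicative helicase, stood lower at 546 and 509.9 CPM in null mice, against 849 and 854 CPM in control mice (−0.69 ± 0.24), while E2f1, an S phase transcription factor, stood at 106 and 43.4 CPM in null against 29.1 and 35.8 CPM in control mice. The median cell held a read for 20 and 14 of the 28 in null mice and 18.5 and 12 in control mice. Among 16 D cyclins, kinases and inhibitors tested (median 0.02), Ccnd1 stood at 18.9 and 10.3 CPM in null against 1.37 and 3.46 CPM in control mice, the inhibitor Cdkn2d at 62.0 and 93.9 CPM in null against 21.0 and 40.9 CPM in control mice, and Ccnd2 at 678 and 434 CPM in null against 707 and 782 CPM in control mice. Ccnd1 was read in 19.4% and 14.3% of cells in null mice, against 2.94% and 8.57% in control mice.

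**Figure D4:**
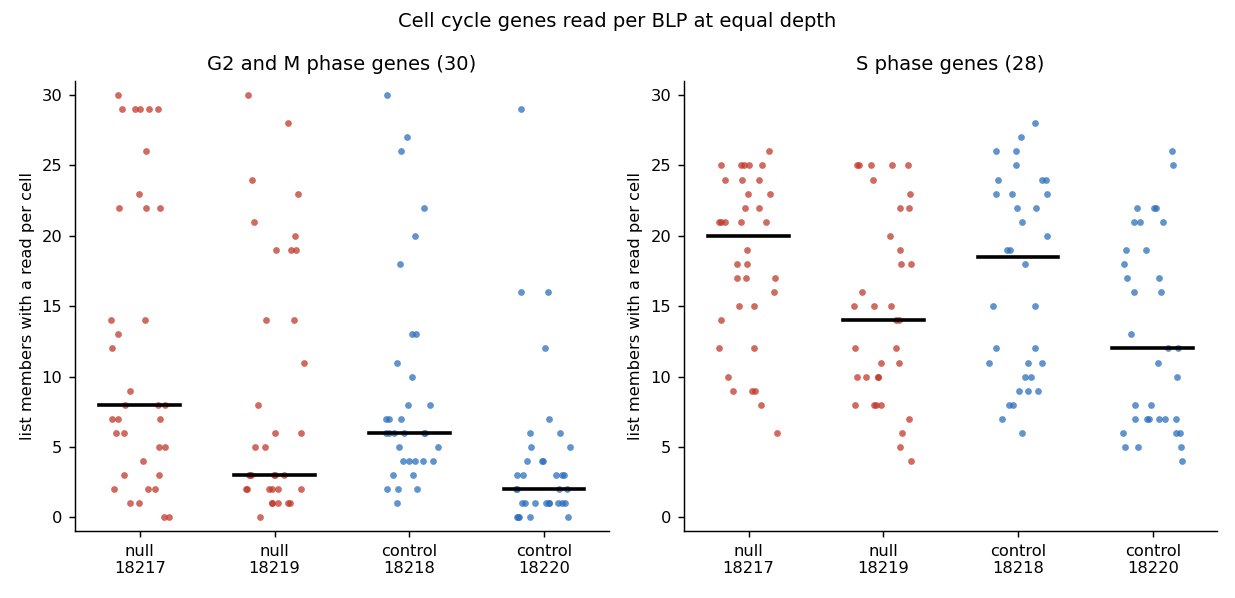
Each point is 1 BLP, with the number of G2 and M phase genes (left panel, of 30) or S phase genes (right panel, of 28) that had a read after thinning to 50000 nuclear reads; black lines are medians, null mice are red at the left and control mice blue at the right. Cells at 15 or more on the left panel are more frequent in the null mice (11 and 9 cells, against 6 and 3 in control mice), while the medians overlap.

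Promoters of the list are shown for the letters that such genes are known to carry. Genes of late cell cycle are known to carry a cell cycle homology region (CHR) and CCAAT boxes near their starts. The letters TTTGAA and CCAAT were searched on both strands in windows of 250 bases before to 50 after each RefSeq start (GRCm38.p6), and matches of the 2 can share at most 1 end letter. A window was found for 27 of the 30 genes. TTTGAA was found for 19 of them (70.4%), against 15.0% of 11476 genes tested, and CCAAT for 22 (81.5%), against 42.1%. Both stood in 17 (63.0%), against 6.03%. Capitals mark the matches in Ccnb2 and in Cdca3, a mitotic regulator that stood at 226 and 107 CPM in null against 43.5 and 16.3 CPM in control mice.
Ccnb2, chr9:70421505-70421804, minus strand: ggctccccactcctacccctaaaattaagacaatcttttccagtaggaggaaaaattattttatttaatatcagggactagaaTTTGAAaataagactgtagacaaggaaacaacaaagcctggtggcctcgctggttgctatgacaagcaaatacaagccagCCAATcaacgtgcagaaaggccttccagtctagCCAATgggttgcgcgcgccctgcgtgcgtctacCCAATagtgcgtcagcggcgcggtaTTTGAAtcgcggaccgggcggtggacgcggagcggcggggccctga
Cdca3, chr6:124829926-124830225, plus strand: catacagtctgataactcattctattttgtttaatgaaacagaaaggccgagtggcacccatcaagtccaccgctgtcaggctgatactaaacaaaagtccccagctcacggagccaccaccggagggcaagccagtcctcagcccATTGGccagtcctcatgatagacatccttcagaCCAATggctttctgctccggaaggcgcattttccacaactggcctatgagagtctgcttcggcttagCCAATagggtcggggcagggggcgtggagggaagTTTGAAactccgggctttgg
The Ccnb2 window holds 5 matches and the Cdca3 window 4. A match of letters is not a measured site. The list was chosen by known function, so these shares do not depend on the comparison of null with control cells.

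Interferon response genes lay higher more often than lower, and none was called. Of 27, 19 lay higher and 8 lower in null BLPs, with a median of 0.24. In both null mice 8 lay higher and 1 lower, where 16.3% and 17.1% of all genes did. By share of cells 11 of 22 lay higher and 1 lower, against 13.7% and 15.9% of all genes. Oas2, which makes short oligoadenylates in response to viral RNA, stood at 17.1 and 23.9 CPM in null mice, against 4.42 and 3.20 CPM in control mice (2.43 ± 0.58), and Oas1a, of the same family of similar genes, at 66.9 and 27.9 CPM in null mice, against 15.7 and 9.23 CPM in control mice (1.93 ± 0.52). Iigp1, an interferon-induced GTPase, stood at 3.19 and 8.34 CPM in null mice, against 0.772 and 0.0859 CPM in control mice (3.76 ± 1.32). These levels rest on few cells. At equal depth Iigp1 was read in 1 of 36 and 4 of 35 null cells, and the highest cell gave 116 of 170 and 177 of 440 reads. For Oas2 in control mice, the highest cell gave 315 of 361 and 281 of 335 reads. Usp18, which removes ISG15 from proteins, had 44.3 and 51.0 CPM in null against 24.1 and 9.53 CPM in control mice, while Irf7, a transcription factor of the response, had 22.7 and 89.1 CPM in null against 41.4 and 59.1 CPM in control mice and overlapped. The summed list overlapped as well (1132 and 1384 CPM in null against 915 and 1152 CPM in control mice), the median cell held a read for 6 and 6 of the 27 in null mice and 6 and 5 in control mice, and edgeR gave Oas2 the smallest adjusted p, 0.419.
The interferon-stimulated response element was searched on both strands in the same windows as the letters GAAA repeated after any 2 bases. It was found for 13 of 19 list members with a window (68.4%), against 3.94% of the genes tested. This list too was chosen by known function, so that share does not depend on the comparison of null with control cells. Binding at these letters was not measured. The window of Oas1a is printed, with its 2 overlapping matches in capitals, as the member of lowest p that has a window.
Oas1a, chr5:120907476-120907775, minus strand: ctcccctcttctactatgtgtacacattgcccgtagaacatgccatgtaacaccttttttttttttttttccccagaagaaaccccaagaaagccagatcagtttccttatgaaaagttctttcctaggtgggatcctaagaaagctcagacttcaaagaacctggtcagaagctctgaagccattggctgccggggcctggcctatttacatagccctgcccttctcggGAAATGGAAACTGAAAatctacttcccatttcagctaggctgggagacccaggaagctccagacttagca

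The lists that hold Apoe and Ablim1 gave no other call. Of 16 lipid transport genes tested, Apoe was 1 of 4 higher and 10 were lower, while Apoc1 and Apoc2, which neighbour Apoe, had no read in any BLP. The list had a median of −0.44 with 7 members lower and 2 higher in both null mice, where 17.1% and 16.3% of all genes were. The cholesterol exporter Abcg1 stood at 35.0 and 28.4 CPM in null mice, against 75.0 and 114 CPM in control mice (−1.58 ± 0.31), the lipoprotein receptor Scarb1 at 45.3 and 31.5 CPM in null against 90.7 and 56.5 CPM in control mice, and Srebf2, which drives sterol synthesis, at 70.6 and 81.6 CPM in null against 112 and 163 CPM in control mice. All 3 were lower in both null mice, and edgeR called none of them (adjusted p = 0.353 for Abcg1). Of 23 actin and adhesion genes, 14 lay lower and 9 higher (median −0.20). Besides Ablim1, the calponin Cnn3 stood at 367 and 329 CPM in null against 479 and 523 CPM in control mice, the integrin chain Itgb2 at 26.2 and 38.5 CPM in null against 55.6 and 110.2 CPM in control mice, and the adhesion receptor Cd44 at 158 and 162 CPM in null against 252 and 352 CPM in control mice. The intermediate filament gene Vim was higher at 248 and 238 CPM in null against 137 and 68.7 CPM in control mice.

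Chromatin genes outside NuRD, and genes that are silenced in somatic cells, gave no call. Of 28 other chromatin regulators, 18 lay lower and 10 higher (median −0.04). Ezh1, a Polycomb methyltransferase, stood at 7.52 and 25.5 CPM in null mice, against 56.0 and 120.2 CPM in control mice (−2.42 ± 0.65), and Tet1, which oxidises methylcytosine, at 24.1 and 34.6 CPM in null mice, against 70.9 and 58.6 CPM in control mice (−1.14 ± 0.35). Cbx2, of Polycomb repressive complex 1, had 47.2 and 35.3 CPM in null against 79.1 and 84.2 CPM in control mice, and Ezh2 had 301 and 185 CPM in null against 156 and 106 CPM in control mice, the opposite order. Germline genes stayed near 0, summing to 5.10 and 11.9 CPM in null against 8.92 and 25.7 CPM in control mice, and 6 of 18 could be tested. Of 18 imprinted genes tested, 9 lay higher and 9 lower, and Igf2r, the receptor that clears IGF2, stood at 1.26 and 0.171 CPM in null against 12.8 and 7.46 CPM in control mice.

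**Figure D5:**
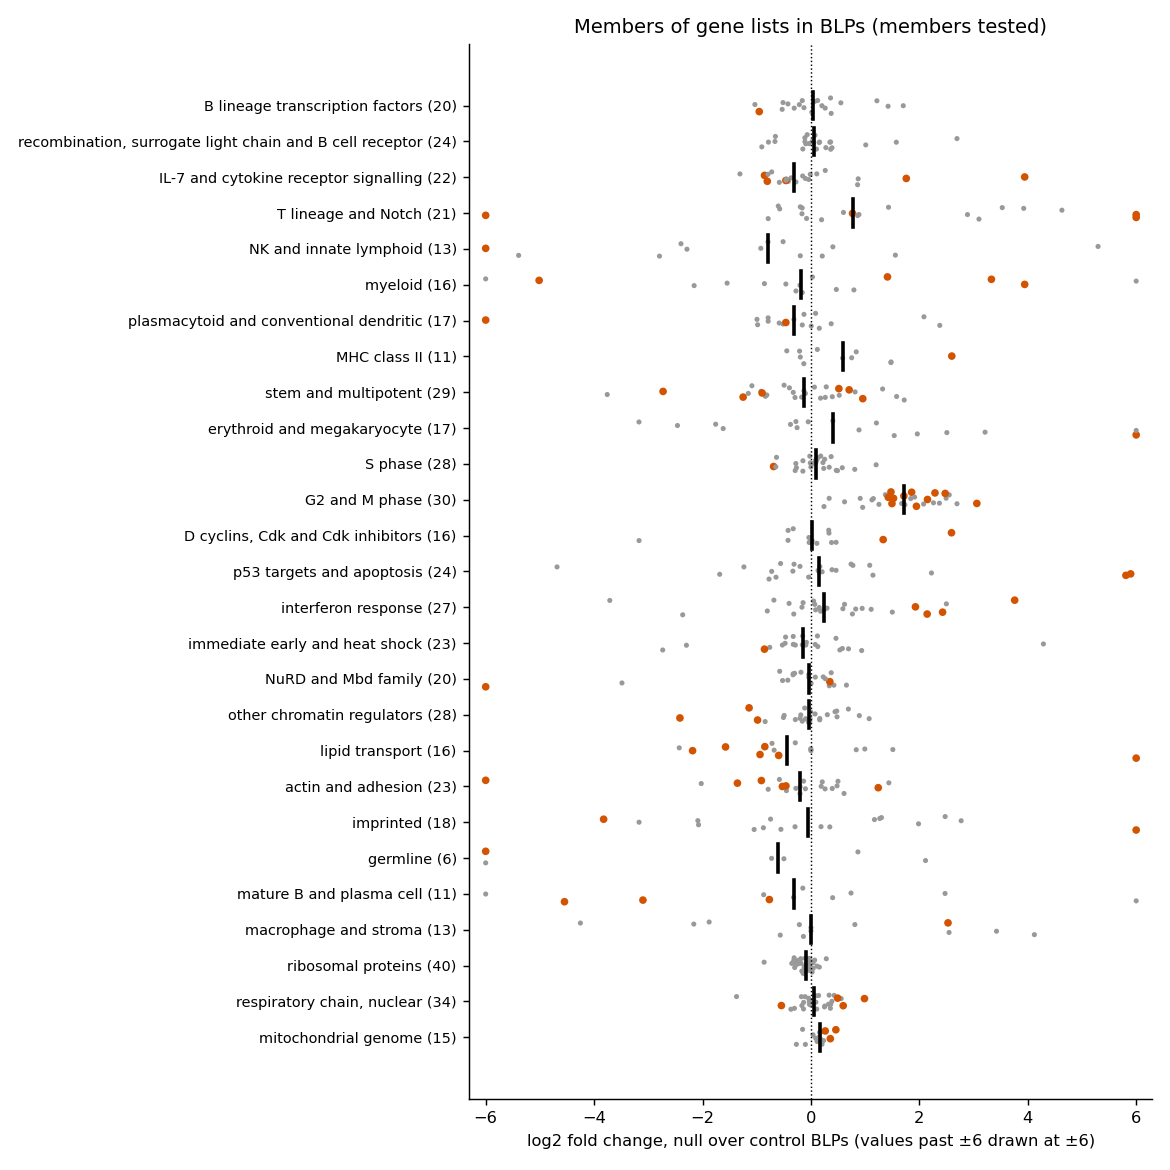
Each row is a gene list, with the number of members tested, and each point is a member, placed by its log2 fold change of null over control BLPs; orange points have an unadjusted edgeR p under 0.05 and black bars are list medians. The median of the G2 and M phase list, at 1.72, lies furthest from the dotted line, which marks the median of all genes at −0.01.

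Markers of other cells that the gate could hold were measured for their level. Myeloid genes had 7 of 16 tested higher and 9 lower (median −0.18) and summed to 2273 and 2024 CPM in null against 1976 and 2590.1 CPM in control mice, with overlap. Among them Mpo, the peroxidase of granulocyte progenitors, stood at 249.9 and 292 CPM in null against 137 and 66.6 CPM in control mice (1.41 ± 0.45). At equal depth Mpo was read in 22 of 36 and 23 of 35 null cells. In control mice it was read in 22 of 34 and 8 of 35 cells, so the shares overlapped. Ctsg, a granule protease, stood at 36.4 and 60.3 CPM in null against 9.48 and 0.153 CPM in control mice. Cebpa, the factor that drives granulocyte fate, stood at 0.206 and 0.493 CPM in null against 3.75 and 18.9 CPM in control mice. The highest cell gave 259 of 306 Cebpa reads in control mouse 18218 and 1959 of 1982 in 18220. The granule genes Elane, Camp and Ms4a3 did not exceed 0.0123 CPM in any mouse. T lineage and Notch genes had 13 of 21 tested higher and 8 lower (median 0.77), and the median turned to −0.099 without null mouse 18219. The list held Lat, an adaptor of T cell receptor signalling, at 89.9 and 98.4 CPM in null against 57.9 and 52.7 CPM in control mice and both Cd3g and Cd2 at no more than 0.0573 CPM. NK and innate lymphoid genes had 4 of 13 tested higher and 9 lower (median −0.79), with Gzma and Gzmb at 0, and Nkg7 at 313 and 383 CPM in null against 319.6 and 206 CPM in control mice. Tox, a factor of T and innate lymphocyte development, had 122 and 24.1 CPM in null against 25.4 and 24.2 CPM in control mice and overlapped.

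Dendritic genes had 6 of 17 tested higher and 11 lower (median −0.31). Siglech, a receptor of plasmacytoid dendritic cells, stood at 391 and 342 CPM in null against 464 and 802 CPM in control mice, and Pld4 at 60.0 and 46.8 CPM in null against 111 and 102 CPM in control mice. MHC class II genes had 7 of 11 tested higher and 4 lower (median 0.58), and beside Cd74 the chains H2-Aa and H2-Ab1 overlapped between genotypes (50.6 and 0.872 CPM in null against 0.551 and 17.9 CPM in control mice, and 52.4 and 55.7 CPM in null against 23.9 and 75.7 CPM in control mice). Erythroid and megakaryocyte genes had 9 of 17 tested higher and 8 lower (median 0.40), of the opposite sign under 6 of 15 alternatives and between −1.27 and 1.496 with a mouse left out. Mature B and plasma cell genes had 4 of 11 tested higher and 7 lower (median −0.32). Sdc1, the plasma cell marker CD138, stood at 92.2 and 129.8 CPM in null against 173 and 204 CPM in control mice, and Ms4a1, which encodes CD20, did not exceed 0.411 CPM. Stem and multipotent genes had 13 of 29 tested higher and 16 lower (median −0.13). Among these Lmo2, a factor of blood stem cells, stood at 162 and 119 CPM in null mice, against 91.7 and 80.5 CPM in control mice (0.71 ± 0.19), Erg at 70.1 and 135 CPM in null against 54.0 and 51.6 CPM in control mice, and Cd34 at 102 and 250.1 CPM in null against 356 and 302 CPM in control mice. Medians of the myeloid, dendritic, MHC class II and stem lists also turned under 1 to 3 of 15 alternatives. No member of these lists was called, and their part in the differences above was not tested.

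No housekeeping or stress gene was called. Of 40 ribosomal protein genes, 32 lay lower and 8 higher, 15 of them lower in both null mice and 1 higher (17.1% and 16.3% of all genes), with a median of −0.09. Rps14 stood at 895 and 1022 CPM in null against 1126 and 1265 CPM in control mice (−0.32 ± 0.16). Nuclear genes of the respiratory chain had 21 of 34 tested higher and 13 lower (median 0.06), with Ndufa9, of complex I, at 197 and 148 CPM in null mice, against 98.5 and 75.7 CPM in control mice (0.99 ± 0.23). Of 15 genes of the mitochondrial genome, 12 lay higher, 5 of them in both null mice (16.3% of all genes), and the median of 0.16 turned to −0.07 without null mouse 18217. Among them mt-Rnr1, a ribosomal RNA, stood at 2627 and 2473 CPM in null against 1822 and 1886 CPM in control mice. Targets of p53 and apoptosis genes had 13 of 24 tested higher and 11 lower (median 0.14), with Trp53 itself at 390.1 and 394 CPM in null against 365 and 351 CPM in control mice and Cdkn1a at 283 and 249 CPM in null against 137 and 249 CPM in control mice. Immediate early and heat shock genes, which respond to handling, had 9 of 23 tested higher and 14 lower (median −0.15), and Fos ranged more within the controls than between genotypes (485 and 661 CPM in null against 189 and 1406 CPM in control mice). Dnajb1, a heat shock cochaperone, had 160.1 and 148 CPM in null against 238 and 319.7 CPM in control mice.

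The response to loss of Mbd3 was not called as different between populations for any gene by edgeR. Tests of whether the genotype effect in BLP differs from that in ALP or in LMPP called 0 of 19903 genes each with edgeR (0.0%), and 1269 (6.38%) and 1349 (6.78%) had an unadjusted p under 0.05. DESeq2 called 352 and 394, and limma-voom 1 and 0. The comparisons share no cells, but the populations come from the same 4 mice. Arhgef40, higher in null BLPs, stood at 8.75 and 38.7 CPM in null ALPs against 10.7 and 4.29 CPM in control ALPs, and at 14.5 and 23.3 CPM in null LMPPs against 23.2 and 15.2 CPM in control LMPPs, with overlap in both. Its effect in BLP exceeded that in ALP by 6.49 ± 1.18 and that in LMPP by 8.17 ± 1.23 on the log2 scale (edgeR adjusted p = 0.776 and 0.706). Prr13 stood at 82.4 and 118 CPM in null ALPs against 68.3 and 67.1 CPM in control ALPs, and its effect in BLP was larger by 1.65 ± 0.36. Neither difference passed the threshold.

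Some genes had the opposite order of genotypes in another population. Tcf12, lower in null BLPs, had 88.0 and 106 CPM in null ALPs against 58.2 and 49.1 CPM in control ALPs, a difference between effects of −1.80 ± 0.37. Slc25a1, also lower in null BLPs, had 434 and 445 CPM in null ALPs against 313 and 367 CPM in control ALPs (−1.42 ± 0.28). Eef1e1, a partner of the tRNA synthetase complex, had 95.3 and 81.1 CPM in null BLPs against 154 and 169 CPM in control BLPs, and 155 and 155 CPM in null LMPPs against 102 and 88.2 CPM in control LMPPs (−1.58 ± 0.26), and Angptl4, a lipase inhibitor, had 10.7 and 22.3 CPM in null BLPs against 41.6 and 59.2 CPM in control BLPs, and 40.8 and 39.8 CPM in null LMPPs against 13.6 and 13.8 CPM in control LMPPs. Gnptab and Map7 also had a small p for the difference from ALP, and Nt5dc1 and Slc6a6 for that from LMPP. The edgeR adjusted p was 0.776 for each gene named against ALP and 0.706 for each named against LMPP. By list, the G2 and M phase genes had a median log2 fold change of 1.72 in BLP, −0.74 in ALP and 1.25 in LMPP. Of these 30, 14 had an unadjusted edgeR p under 0.05 for the difference from ALP and 0 for that from LMPP. Over all genes the shares were 6.38% and 6.78%, and no list member was called. The interferon list had 0.24 in BLP, −0.25 in ALP and −1.20 in LMPP. By the same 2 tests, 5 and 10 of its 27 genes had an unadjusted edgeR p under 0.05, as did 5 and 3 of the 20 B lineage factors. The B lineage factors had 0.04 in BLP, 0.03 in ALP and −0.16 in LMPP, and Pax5 stood at 30.9 and 28.0 CPM in null ALPs against 0.267 and 1.51 CPM in control ALPs.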

How the data were processed

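Single progenitor cells were sorted into wells of 96-well plates, and full-length cDNA libraries were sequenced without molecular identifiers, so that a count is a read. The authors deposited a table of raw read counts per gene and cell, made with GSNAP 2015-09-29 and HTSeq 0.5.3p3 on mm10, per the submitters' processing notes. How read strand was treated is not stated there. Overlapping genes on opposite strands may therefore share reads that cannot be told apart, and reads of near-identical family members are uncertain.

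Counts of kept cells were summed per mouse and population into 12 libraries. The 2 genotypes were compared in BLP with edgeR's quasi-likelihood test (TMM scaling, filterByExpr, a mean per population and genotype, 6 residual degrees of freedom), with Benjamini-Hochberg adjustment over 19903 genes and a threshold of 0.05. Fold changes are null over control on the log2 scale, and their SE is approximate. CPM, computed here, scale a gene's counts to the library's TMM-scaled counts on the genes tested, mitochondrial genes included. They are not corrected for transcript length. Shares of cells with a read after thinning each cell to 50000 nuclear reads were tested with limma on the arcsine square root scale, with a variance trend. Differences between populations were tested as interaction terms. Both tests were tried on simulated data, where the share test called more unchanged genes than its threshold allows and the edgeR test left many changed genes uncalled. A gene that was not called is therefore not shown to be unchanged. Versions were R 4.3.3, edgeR 4.0.16, limma 3.58.1 and DESeq2 1.42.0.

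Each mouse gave all 3 populations, so a mouse block was an alternative for the differences between populations. Deviations of a mouse's libraries from their group means correlated at 0.0295 to 0.0507. Libraries of different mice and genotypes reached 0.0477, so these values do not set a mouse effect apart. BLP libraries held 53741264 to 108737030 reads.

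Genes named are Mbd3, the sorting genes, those called, up to 10 a direction with the smallest p (at least 20 CPM in the higher genotype, no overlap, read in at least 20% of its cells), up to 8 a direction with the largest difference in share, the 3 of smallest p in each list, and 3 a direction in each interaction test. Other list members named were chosen for their role after their values were seen. The members and lists were chosen with earlier results of these data known. Some genes that this rule names are not reported here.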

Additional observations from a re-analysis of the deposited data

How the results depend on the processing

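Against the 2 genes that edgeR called in BLP (1757 at an unadjusted p under 0.05), DESeq2 called 800 (2811), edgeR without the low-count filter 11 (2983), and edgeR with the highest cell of each gene and library left out 5 (1454). It called 1 with all cells kept, and 1 with cells of at least 500000 counts. No gene was called by limma-voom (1508 at an unadjusted p under 0.05), in the BLP libraries alone (1131) or with the order of table columns as a block (1699), an alternative chosen after the data were seen. Leaving out each mouse in turn gave 0 called genes each time (1255 to 1842 at an unadjusted p under 0.05). Apoe kept its direction in all alternatives, with edgeR adjusted p of 0.179 without the highest cell. Its log2 change was 7.02 to 8.39 with a mouse left out. On mean log2 values of cells, where each cell counts alike, it was 0.51 (limma adjusted p = 0.453). Ablim1 kept its direction too, at −8.65 to −7.69 with a mouse left out, and had edgeR adjusted p of 0.0636 with all cells kept. On mean log2 values Ablim1 passed (−2.23, limma adjusted p = 0.00833). For differences between populations, edgeR called 0 genes against ALP and 0 against LMPP, DESeq2 352 and 394, and limma-voom 1 and 0. Against ALP, edgeR without the filter called 1. With mouse as a replicate block, edgeR called 0 in both (1062 and 1126 at an unadjusted p under 0.05), and no call changed. By share of cells, limma called 2 genes (810 at an unadjusted p under 0.05), 3 when a cell needed 3 reads, 0 at a depth of 200000 (866) 0 in BLP alone (443) and 1, Ablim1, without the variance trend (836), an alternative chosen after the main result was seen, and leaving out each mouse gave 0 to 7, with 7 without null mouse 18217. Mbd3 passed with DESeq2 (−8.23, adjusted p = 5.15e-07) and in edgeR without the filter (−8.25, adjusted p = 0.025). Among named genes, 49 more passed with DESeq2 and 5 without the filter. With 1 mouse left out in turn, the log2 fold changes of Tox (−0.044 to 2.29), Zbtb16 (−0.091 to 9.01), H2-Oa (−0.014 to 0.99), Klf1 (−4.19 to 10.22), Eda2r (−0.72 to 6.801), Chd5 (−4.50 to 2.95), Plagl1 (−0.63 to 3.69), Dazl (−8.68 to 3.67), Ddx4 (−1.22 to 3.03), Mrc1 (−5.45 to 1.59) and Col1a1 (−2.19 to 6.15) took both signs. H2-DMb1 turned with thinned cells (−0.25), with the highest cell left out (−0.016) and with mean log2 values (−0.055), and Ddx4 with the highest cell left out (−0.091). Apart from the effect of fewer samples or genes tested, the cause of these changes was not tested.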
